A study of Mus musculus with 4 samples.

Results

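The genes described here are 51 genes of the cell cycle, taken by name from the RNA-seq tables of quiescent follicular B cells, out of 23305 genes in the tables. All 51 were found, and they were divided by role into 13 S phase genes, 20 mitotic genes, 10 drivers of G1 and 8 genes that restrain cells in G0 or G1. The data are 4 libraries, 2 from wild-type (WT) mice of the strain C57BL/6 and 2 from Ets1-/- mice of the strain C57BL/6 x 129Sv, which carry a targeted allele of the transcription factor Ets1. Spleens were from female mice whose age is not given in the sources used here, and the cells were sorted as B220+ CD23-high CD21-low and negative for CD80 and for the switched isotypes IgA, IgE and IgG, with dead cells gated out. The targeted allele is present in the whole animal rather than in B cells alone, and because strain and genotype changed together, a difference between the groups cannot be told apart from a difference of strain. The study describes the replicates as biological, but the number of animals behind each library is not given.

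A resting B cell sits in G0 with a diploid genome and a low rate of transcription, and it divides only after its antigen receptor or another activating receptor has been engaged. Entry into the cycle begins when D-type cyclins pair with Cdk4 or Cdk6 and, with cyclin E and Cdk2, phosphorylate the retinoblastoma protein, which releases the activating E2F factors to switch on the genes of DNA replication. In G0 this step is held back by the Cdk inhibitors and by complexes of p130 with E2f4, which repress replication and mitotic genes without silencing all of them. Transcripts of the mitotic genes come mainly from cells in late S phase, G2 or M.

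Expression is given as FPKM, the number of sequenced fragments scaled to transcript length and to library size, so that levels can be set beside each other. Comparison between libraries also rests on the authors' scaling, which is not given. Over the 10949 genes tested below the summed FPKM was 720975 and 845352 in WT and 918742 and 861006 in Ets1-/- cells. The deepest library held 2.01 times the reads of the shallowest as judged from the steps between low values, with relative depths of 1.00 and 1.71 in the WT replicates and 1.65 and 0.85 in the Ets1-/- replicates. Ets1 itself had an FPKM of 231 and 275 in WT and of 229 and 229.8 in Ets1-/- cells. The study shows that the targeted exons lose their reads while the rest of the transcript remains, so the level of the whole gene does not check the labels. Of 12 listed B cell markers 10 were in the tables, and their summed FPKM was 7942 and 7717 in WT and 6595 and 7799 in Ets1-/- cells, which fits the B cell label of all 4 libraries. Markers of other cells were present too. The 15 neutrophil granule genes found summed to an FPKM of 119.6 and 96.4 in WT and of 2635 and 726 in Ets1-/- cells, with all 15 higher in both Ets1-/- libraries, and the 12 erythroid genes summed to 9.02 and 7.65 against 97.8 and 32.6. In the test described below, 4 of the neutrophil genes were called higher in Ets1-/- cells, where 0.877% of all genes tested were. The 12 genes of monocytes, macrophages and dendritic cells summed to 89.1 and 50.5 in WT and to 175 and 115 in Ets1-/- cells. Of these, 1 was called higher. The 9 genes of plasma cells summed to 353 and 415 against 420 and 454. For 11 T cell genes the sums were 185 and 150.5 against 149 and 198. Those of 8 NK cell genes were 48.0 and 31.9 against 23.0 and 32.6. Ctsg among the neutrophil genes was listed at 0 in 1 WT library, and Hbb-b2 among the erythroid genes at 0 in 1 library of each genotype and near 0 in the others. The part of these other cells in the values of the cell cycle genes was not tested.

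The 4 roles differed in their median level in resting cells, with overlapping ranges. Replication genes were the most abundant by median, with a median of the WT means of 24.3 FPKM, which placed the median S phase gene at the 78.7th percentile of all genes above 0. Genes of G0/G1 restraint had a median of 15.5 FPKM and G1 drivers of 8.86 FPKM. The 20 mitotic genes had the lowest median, with a median of 3.96 FPKM, a range of WT means from 0.522 for Cenpf to 9.39 for Ube2c and a median percentile of 49.6. The highest of all members was Pcna, the sliding clamp of the replicative DNA polymerases, followed by Cdk4, E2f4 and Cdkn1b. Mki67, which encodes the proliferation marker Ki-67, ranked 32nd of the 51. In the plot of levels by role no mitotic gene reached 12 FPKM in any library, while 10 of the 13 S phase genes were above 15 FPKM in all 4 libraries.

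**Figure D1:**
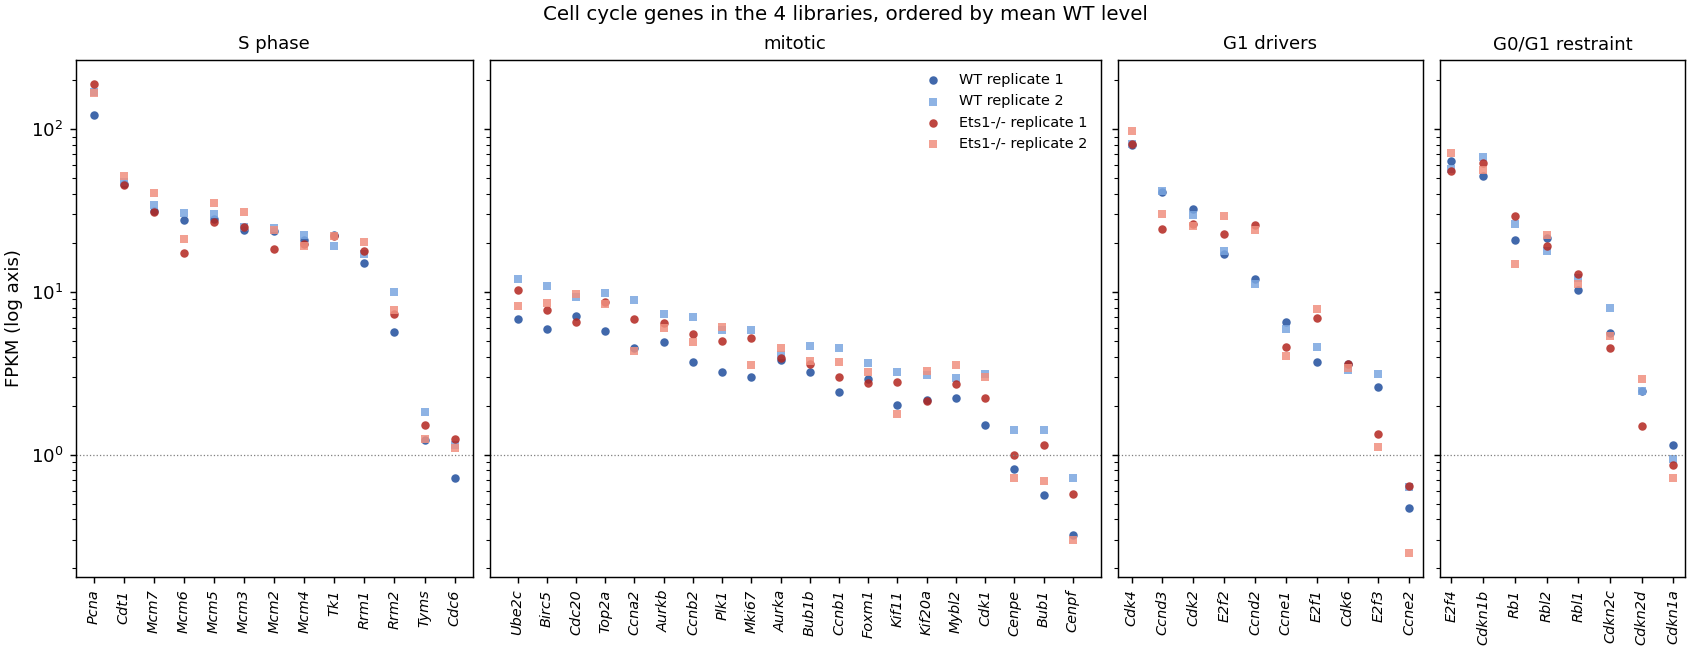
FPKM of each of the 51 cell cycle genes on a log axis, ordered within each role by the mean of the 2 WT libraries, with 1 point per library and a dotted line at an FPKM of 1. S phase genes reach 190.4 FPKM at Pcna, the mitotic genes lie below 12 FPKM, and the WT replicate 2 points of the mitotic genes sit above those of WT replicate 1.

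Whether loss of Ets1 moved these genes was asked with limma on log2(FPKM + 1) across the 10949 genes whose mean reached 1 FPKM in WT or in Ets1-/- cells. A gene was called when its fold change reached 1 on the log2 scale and its Benjamini-Hochberg adjusted p over all genes tested was 0.05 or less. Of the 51 members 48 were tested, and Bub1, Cenpf and Ccne2 were below the level filter. One member was called higher in Ets1-/- cells, Ccnd2, where 0.877% of all genes tested were called higher. None was called lower, where 0.822% of all genes were. At an unadjusted p under 0.05 there were 7 members of 48, which is 14.6% against 13.3% of all genes tested. The share among the members was near that of all genes. The 7 were unevenly spread over the roles, with 6 among the 9 tested G1 drivers, 1 among 13 S phase genes and 0 among 18 mitotic genes and 8 restraint genes. The median of the absolute log2 fold change was 0.53 for G1 drivers, 0.06 for mitotic genes and 0.16 for all genes tested. The signed median for the G1 drivers was 0.01, with 5 of the 9 fold changes above 0 and 4 below. When 1 library was left out, the median ranged from -0.04 to 0.06 for G1 drivers, from -0.04 to 0.13 for S phase genes and, most widely, from -0.27 without WT replicate 1 to 0.34 without WT replicate 2 for mitotic genes.

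**Figure D2:**
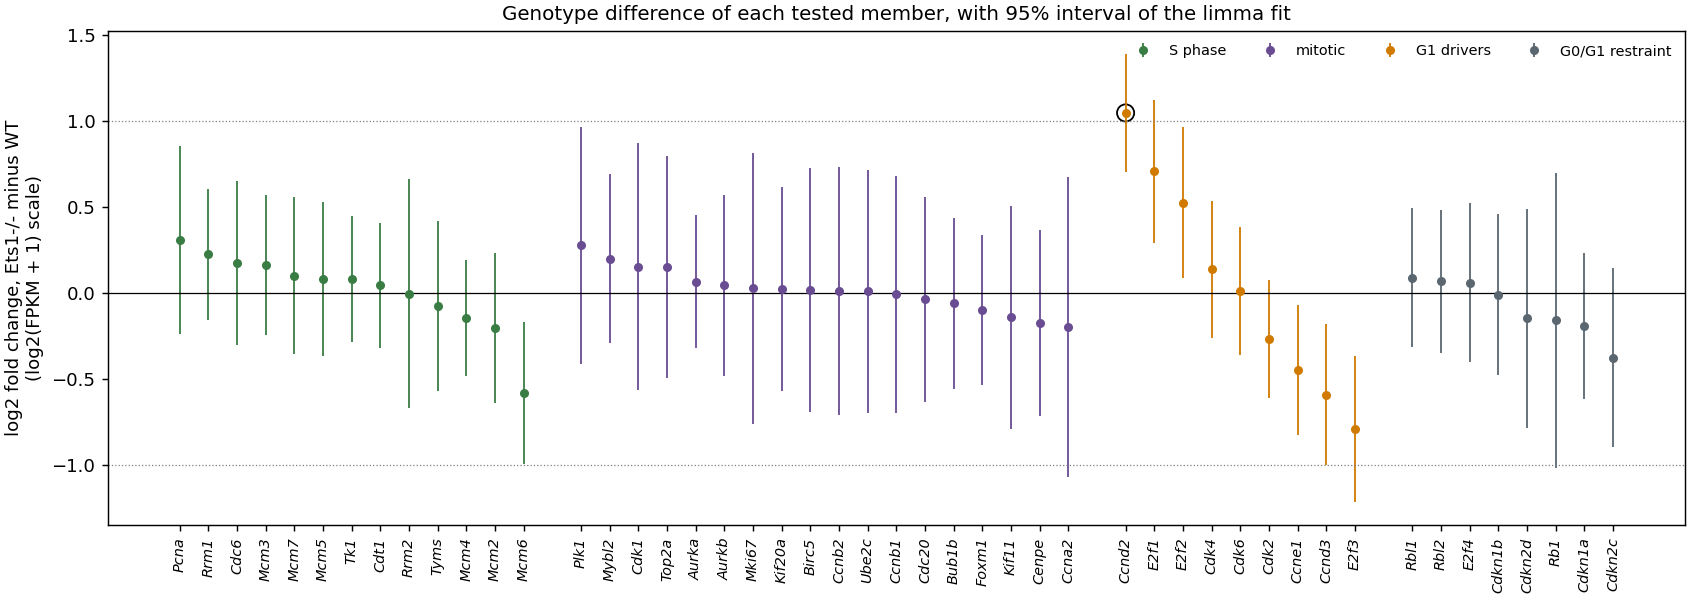
log2 fold change of Ets1-/- over WT cells on the log2(FPKM + 1) scale for the 48 tested genes, grouped by role, with bars for the 95% interval of the limma fit, dotted lines at -1 and 1 and a ring around the 1 gene called. The G1 drivers spread from -0.79 at E2f3 to 1.05 at Ccnd2, and the intervals of all 18 mitotic genes include 0.

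Of the 3 D-type cyclins 1 was called. Ccnd2, which encodes cyclin D2, the D-type cyclin induced in B cells by antigen receptor signalling, had an FPKM of 11.9 and 11.1 in WT cells and of 25.8 and 24.0 in Ets1-/- cells. The groups were well apart, and each Ets1-/- library was above every WT library by more than the spread within either group. The mean was 2.16-fold higher in Ets1-/- cells, and the log2 fold change was 1.05 ± 0.13 (SE) with an adjusted p of 0.0383 in limma. This call did not withstand every setting. With robust variance estimation the adjusted p in limma was 0.0128. With the replicate numbers crossed between the genotypes as a block, a choice made after seeing the data, it was 0.00107. The adjusted p was above 0.05 with the replicate number as a block (adjusted p = 0.0529) and with no filter on level (adjusted p = 0.0685). It was also above 0.05 without Ets1-/- replicate 1 (adjusted p = 0.0773), Ets1-/- replicate 2 (0.0786), WT replicate 1 (0.248) or WT replicate 2 (0.283). The fold change itself moved little when a library was left out, from 1.00 to 1.10 on the log2 scale. Ccnd2 lies on chr6:127075797-127101066 on the minus strand of mm9, and its exons overlap no other annotated gene.

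Ccnd3, encoding cyclin D3, was the more abundant D-type cyclin of WT cells at 40.9 and 41.4 FPKM and stood at 24.2 and 30.2 FPKM in Ets1-/- cells. Both Ets1-/- libraries lay below both WT libraries, and the log2 fold change was -0.59 ± 0.16 (SE) with an adjusted p of 0.191 in limma, so that the difference was not called. Ccnd3 shares exonic sequence positions with Bysl on the opposite strand, and how the authors' counting divided reads between them is not given. Ccnd1, the third D-type cyclin, was low at 1.10 and 0.671 FPKM in WT and 1.00 and 1.15 FPKM in Ets1-/- cells. Added together, Ccnd2 and Ccnd3 came to 52.8 and 52.5 FPKM in WT and to 50.03 and 54.2 FPKM in Ets1-/- cells. The sum thus differed by less than the spread between the Ets1-/- replicates, while the share of Ccnd2 in it was 22.5% and 21.2% in WT and 51.6% and 44.3% in Ets1-/- cells. The ratio of Ccnd3 to Ccnd2 was 3.44 and 3.72 in WT and 0.937 and 1.26 in Ets1-/- cells, and these ratios, formed after the values of both genes had been seen, are given as a description.

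The activating E2F factors E2f1, E2f2 and E2f3 switch on the genes of S phase. E2f1 had an FPKM of 3.68 and 4.57 in WT and of 6.95 and 7.79 in Ets1-/- cells, a log2 fold change of 0.71 ± 0.16 (SE) with an adjusted p of 0.134. E2f2, the most abundant of the 3, had an FPKM of 17.2 and 17.9 in WT and of 22.5 and 29.3 in Ets1-/- cells, with a log2 fold change of 0.53 ± 0.17 (SE) and an adjusted p of 0.264. E2f3 had an FPKM of 2.59 and 3.12 in WT and of 1.33 and 1.12 in Ets1-/- cells, a log2 fold change of -0.79 ± 0.17 (SE) with an adjusted p of 0.111. The log2(FPKM + 1) scale shrinks a change at this level. The WT mean of E2f3 was 2.33 times the Ets1-/- mean. With a pseudocount of 0.1 the log2 fold change was -1.16, with an adjusted p of 0.121 in limma. The genotypes did not overlap in any of the 3, E2f1 and E2f2 being higher and E2f3 lower in both Ets1-/- libraries, but none passed the adjusted threshold in limma. As a ratio within each library, E2f2 over E2f3 was 6.62 and 5.72 in WT and 16.9 and 26.2 in Ets1-/- cells.

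Ccne1, which encodes cyclin E1, the partner of Cdk2 at the start of S phase, had an FPKM of 6.48 and 5.90 in WT and of 4.56 and 4.01 in Ets1-/- cells, with a log2 fold change of -0.45 ± 0.15 (SE) and an adjusted p of 0.277. Cdk2 was at 32.4 and 29.8 FPKM in WT and at 26.1 and 25.2 FPKM in Ets1-/- cells, without overlap and with an adjusted p of 0.523. The catalytic partners of the D-type cyclins were close between genotypes. Cdk4 had an FPKM of 79.5 and 81.2 in WT and of 81.2 and 96.7 in Ets1-/- cells, with a 95% interval of the log2 fold change from -0.26 to 0.54. Cdk6 was far lower at 3.60 and 3.30 FPKM in WT and at 3.60 and 3.38 FPKM in Ets1-/- cells, with an interval from -0.36 to 0.39. Ccne2, encoding cyclin E2, stayed below 1 FPKM in every library, between 0.247 and 0.639, and was not tested.

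**Figure D3:**
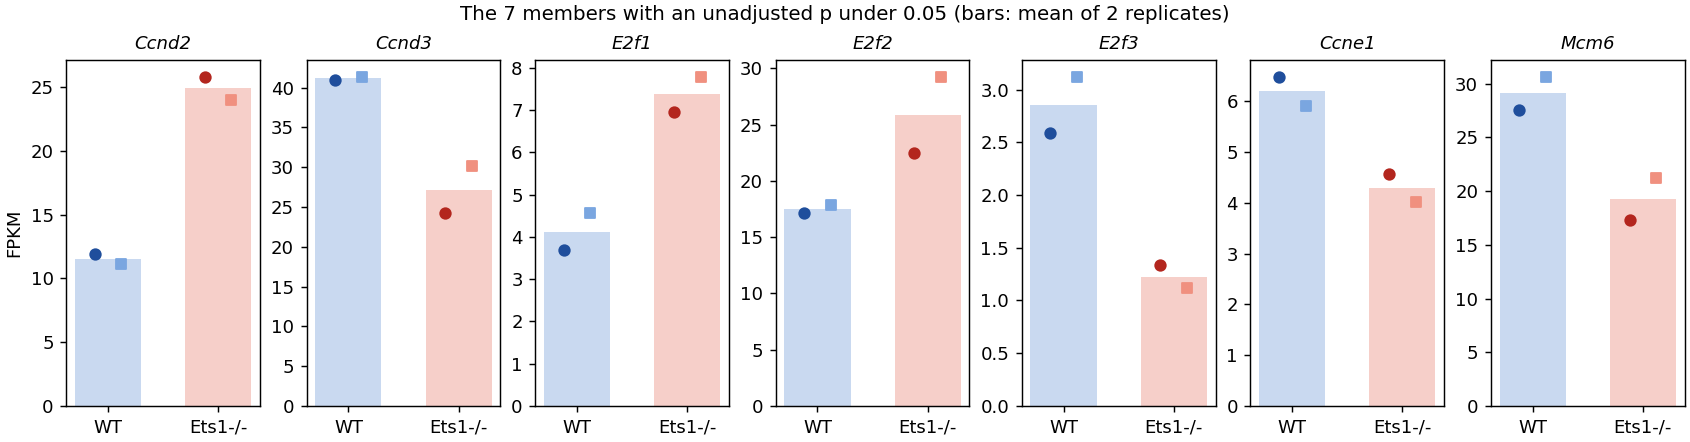
FPKM of the 7 genes with an unadjusted p under 0.05, in WT and Ets1-/- cells, with points for the single libraries (circles replicate 1, squares replicate 2) and bars from 0 to the mean of 2. Ccnd2, E2f1 and E2f2 are higher and Ccnd3, E2f3, Ccne1 and Mcm6 are lower in both Ets1-/- libraries, and Ccnd2 alone passed the adjusted threshold.

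Across the tested members, 4 were higher and 8 were lower in both Ets1-/- libraries than in both WT libraries, which compares with 19.4% of all genes tested that were higher and 22.2% that were lower in this way. Of these 12 genes 7 were G1 drivers, 3 were S phase genes, 2 were restraint genes and 0 were mitotic genes.

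None of the 8 genes of restraint passed the test. Cdkn1b, encoding the Cdk inhibitor p27 that holds lymphocytes in G0, was at 51.8 and 67.7 FPKM in WT and at 62.1 and 55.8 FPKM in Ets1-/- cells. The Ets1-/- values fell between the WT values, and the log2 fold change of -0.01 had a 95% interval from -0.48 to 0.46. E2f4, the repressive E2F factor of quiescent cells, was at 63.3 and 56.8 FPKM in WT and at 55.1 and 71.2 FPKM in Ets1-/- cells. Rbl2, which encodes p130, was at 21.5 and 17.9 FPKM in WT and at 19.1 and 22.3 FPKM in Ets1-/- cells. For both genes the range within Ets1-/- cells was wider than the difference of the means. Rb1 was at 20.8 and 26.2 FPKM in WT and at 29.2 and 14.8 FPKM in Ets1-/- cells, so the Ets1-/- replicates differed 1.98-fold, and its exons overlap Lpar6 and Rcbtb2 on the opposite strand. The Ets1-/- replicates were further apart than the WT replicates over all genes tested. The median absolute difference on the log2(FPKM + 1) scale was 0.259 in Ets1-/- and 0.126 in WT cells. Rbl1, encoding p107, ranged from 10.3 to 12.9 FPKM over the 4 libraries.

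The other Cdk inhibitors were low. Cdkn2d, encoding p19 of the INK4 family that blocks Cdk4 and Cdk6, had an FPKM of 2.47 and 2.46 in WT and of 1.505 and 2.92 in Ets1-/- cells, a 1.94-fold difference between the Ets1-/- replicates around equal WT values. Cdkn2c, encoding p18 of the same family, was at 5.57 and 7.92 FPKM in WT and at 4.49 and 5.35 FPKM in Ets1-/- cells, lower without overlap but with an adjusted p of 0.569. Cdkn1a, the p21 inhibitor induced by p53, was at 1.15 and 0.941 FPKM in WT and at 0.858 and 0.720 FPKM in Ets1-/- cells, with an adjusted p of 0.760. The smallest adjusted p of the 8 restraint genes was that of Cdkn2c, and their median log2 fold change was -0.08 beside -0.02 for all genes tested, moving to -0.14 without WT replicate 1 and to -0.03 without WT replicate 2.

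None of the S phase genes was called, and Mcm6 alone among them had an unadjusted p under 0.05. The Mcm2 to Mcm7 proteins form 1 hexamer that unwinds DNA at the replication fork. Mcm6 had an FPKM of 27.6 and 30.7 in WT and of 17.3 and 21.2 in Ets1-/- cells, a log2 fold change of -0.58 ± 0.16 (SE) with an adjusted p of 0.199 in limma, and whether it differed from the other subunits was not tested. Mcm5 was at 27.9 and 29.9 FPKM in WT and at 26.9 and 35.0 FPKM in Ets1-/- cells. Mcm7 was at 31.4 and 34.02 FPKM in WT and at 30.7 and 40.2 FPKM in Ets1-/- cells. The genotypes overlapped for both, as they did for Mcm2 and Mcm3, and the log2 fold changes of the 5 other subunits lay between -0.20 at Mcm2 and 0.17 at Mcm3. Without 1 library the value ranged from -0.38 to -0.0222 for Mcm2 and from 0.0179 to 0.31 for Mcm3. Mcm4 was lower without overlap by a small margin, at 20.7 and 22.4 FPKM in WT and 19.6 and 19.2 FPKM in Ets1-/- cells, with an adjusted p of 0.778. Mcm7 overlaps the exons of other genes and the microRNAs Mir25 and Mir93, and so its value may hold their reads.

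Cdt1, which loads the Mcm helicase onto origins, was at 46.2 and 47.4 FPKM in WT and at 45.3 and 51.6 FPKM in Ets1-/- cells, and its loading partner Cdc6 was low at 0.716 to 1.25 FPKM over the 4 libraries. Pcna had an FPKM of 122 and 168 in WT and of 190.4 and 165 in Ets1-/- cells, a difference smaller than the spread between the WT replicates, with a log2 fold change of 0.31 ± 0.21 (SE) that ranged from 0.0754 without WT replicate 1 to 0.54 without WT replicate 2. The subunits of ribonucleotide reductase, which makes the deoxynucleotides, were Rrm1 at 15.1 and 17.04 FPKM in WT and 17.7 and 20.2 FPKM in Ets1-/- cells, and Rrm2 at 5.70 and 9.98 FPKM in WT and 7.35 and 7.78 FPKM in Ets1-/- cells. Rrm1 was higher without overlap, with an adjusted p of 0.654. Tk1 and Tyms, enzymes of thymidylate supply, ranged from 19.1 to 22.2 FPKM and from 1.23 to 1.83 FPKM.

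None of the mitotic genes passed the test between the genotypes, and the smallest adjusted p among the 18 tested was 0.793. Mki67 had an FPKM of 3.01 and 5.81 in WT and of 5.22 and 3.57 in Ets1-/- cells. Top2a, the topoisomerase that untangles chromosomes before they separate, had an FPKM of 5.78 and 9.89 in WT and of 8.71 and 8.40 in Ets1-/- cells. Cdk1, the kinase that drives entry into mitosis, had an FPKM of 1.52 and 3.10 in WT and of 2.21 and 2.99 in Ets1-/- cells. In each of the 3 the Ets1-/- values lay between the WT values, so that the WT replicates spanned the whole range. The 95% intervals were wide, from -0.76 to 0.82 for Mki67 and from -0.49 to 0.80 for Top2a on the log2 scale.

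The same ordering of the WT replicates ran through the mitotic genes. Ccna2 (cyclin A2) was at 4.54 and 8.93 FPKM in WT and at 6.81 and 4.36 FPKM in Ets1-/- cells. Ccnb2 (cyclin B2) was at 3.69 and 7.03 FPKM in WT and at 5.51 and 4.89 FPKM in Ets1-/- cells. Birc5, encoding the chromosomal passenger survivin, was at 5.92 and 10.8 FPKM in WT and at 7.77 and 8.55 FPKM in Ets1-/- cells. These genes were all higher in WT replicate 2 than in WT replicate 1, by between 1.83-fold and 1.97-fold. Ube2c and Cdc20, which act with the anaphase-promoting complex, were at 6.84 and 11.9 FPKM and at 7.13 and 9.33 FPKM in WT. In Ets1-/- cells Ube2c was at 10.2 and 8.18 FPKM and Cdc20 at 6.50 and 9.67 FPKM. Of the tested mitotic genes, 18 of 18 were higher in WT replicate 2, where 49.5% of all genes tested were, and the median ratio was 1.72 with a range from 1.07 at Aurka to 2.04 at Cdk1. At least a 1.5-fold excess was present in 11 of the 18, against 4.45% of all genes tested and 5.54% of those with a mean FPKM from 1 to 12. Bub1 and Cenpf, below the filter, were also higher in WT replicate 2, by 2.49-fold and 2.24-fold.

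**Figure D4:**
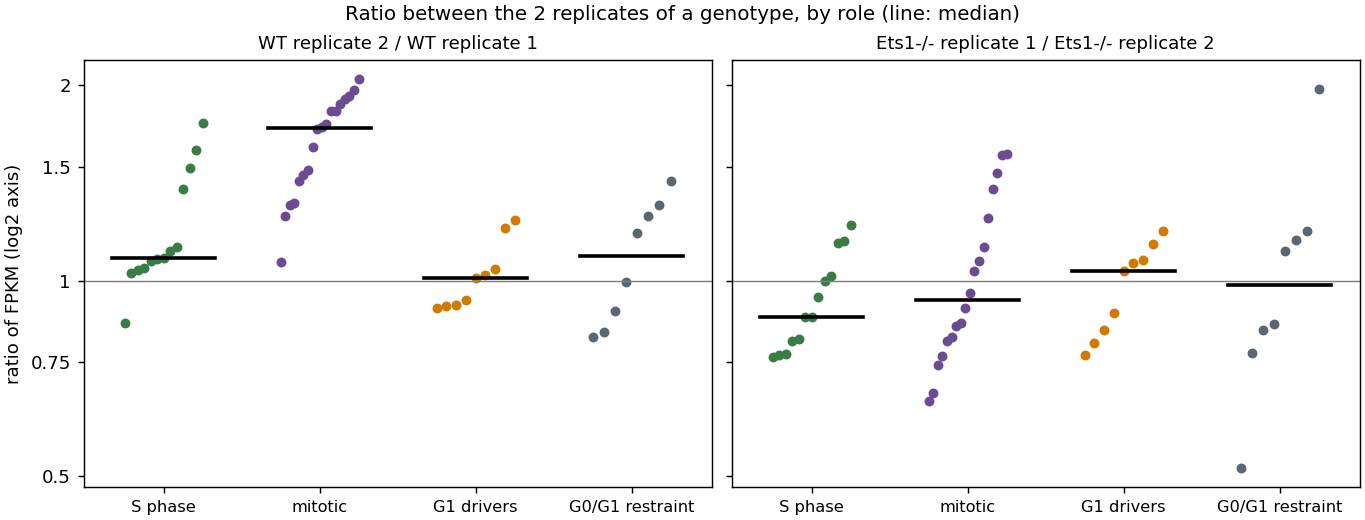
Ratio of FPKM between the 2 replicates of a genotype for each tested gene on a log2 axis, by role, with WT replicate 2 over WT replicate 1 on the left and Ets1-/- replicate 1 over Ets1-/- replicate 2 on the right, and a line for the median. All 18 mitotic genes lie above 1 on the left with a median of 1.72, while on the right they scatter around a median of 0.933.

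The other 3 roles had smaller shifts, which is given as a description. The median ratio of WT replicate 2 to WT replicate 1 was 1.08 for S phase genes, of which 12 of 13 were above 1, 1.01 for G1 drivers, of which 5 of 9 were above 1, and 1.09 for restraint genes, of which 4 of 8 were above 1. Rrm2, Cdc6, Tyms and Pcna had the largest ratios of the S phase genes, from 1.38 at Pcna to 1.75 at Rrm2. In Ets1-/- cells 8 mitotic genes were higher in replicate 1 and 10 in replicate 2, where 45.5% of all genes tested were higher in replicate 1. The summed FPKM of the 20 mitotic genes was 67.0 and 109.7 in WT and 88.0 and 88.2 in Ets1-/- cells, so the difference between the WT replicates exceeded that between the genotypes. In bulk RNA a larger share of dividing cells cannot be told apart from more mitotic RNA per cell.

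Other measures differed between the WT replicates too. WT replicate 2 was 1.71 times as deep as WT replicate 1. Of 9 germinal centre genes found, 8 were higher in WT replicate 2, and their sum was 52.1 and 70.0 FPKM in WT and 36.8 and 46.3 FPKM in Ets1-/- cells. Efna5 of that list was near 0 in all libraries. Of 10 genes of activated B cells 9 were higher in WT replicate 2, with sums of 240 and 431 FPKM in WT and 607 and 327 FPKM in Ets1-/- cells. Cd69 was at 58.3 and 162 FPKM in WT and at 293 and 115 FPKM in Ets1-/- cells. Myc was at 72.5 and 120 FPKM in WT and, higher in both libraries, at 197 and 130 FPKM in Ets1-/- cells. Nfkbid was at 76.3 and 108 FPKM in WT and at 85.2 and 55.4 FPKM in Ets1-/- cells. Between the genotypes 0 of the 10 were called higher and 2 lower, where 0.822% of all genes tested were called lower. Ccl3 was at 7.37 and 9.05 FPKM in WT and at 1.63 and 1.28 FPKM in Ets1-/- cells. Ccl4 was at 6.18 and 7.81 FPKM against 2.16 and 2.12 FPKM. Cd80, against which the cells were sorted, was between 0.376 and 0.621 FPKM. Markers of T cells, NK cells, neutrophils and monocytes, macrophages and dendritic cells were mostly lower in WT replicate 2. There 0 of 11 T cell genes, 0 of 8 NK cell genes, 3 of 12 genes of monocytes, macrophages and dendritic cells and 2 of 15 neutrophil genes were higher than in WT replicate 1. Plasma cell genes went the other way, with 6 of 9 higher in WT replicate 2 and sums of 353 and 415 FPKM in WT replicates 1 and 2. Of 12 erythroid genes 6 were higher in WT replicate 2. The sums in WT replicates 1 and 2 were 185 and 150.5 FPKM for T cell genes, 48.0 and 31.9 FPKM for NK cell genes and 89.1 and 50.5 FPKM for the monocyte, macrophage and dendritic cell genes. The part of depth, germinal centre cells, activated cells, plasma cells and these other cells in the mitotic levels was not tested.

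The promoters of the mitotic genes were searched for elements already known to act in mitotic genes, so a high share among them could be foreseen. RefSeq promoters from 250 bases before to 50 bases after the annotated start (build GRCm38.p6) were found for 42 of the 51 genes, not including Mcm4, Ccna2, Aurkb, Kif20a, Foxm1, Ccnd2, Ccne2, Rb1 and E2f4. The cell cycle genes homology region (CHR), through which the repressive p130 complex of G0 and the activating Mybl2 and Foxm1 complex of G2 reach mitotic genes, was searched as TTTGAA or TTTAAA on both strands. It was present in 14 of 16 mitotic genes, or 87.5%, against 30.6% of all genes with a listed promoter. The CCAAT box of the factor NF-Y, searched as CCAAT on both strands, was also present in 14 of the 16, against 41.1% of all genes. For S phase genes the shares were 4 of 12 for CHR and 8 of 12 for CCAAT. The promoters of 4 mitotic genes that differed by 1.74-fold to 2.04-fold between the WT replicates are shown to make the arrangement visible, each printed 5′ to 3′ on the strand of the gene with CHR and CCAAT matches of either strand in capitals, and in Ube2c a CCAAT pair on opposite strands overlaps and forms 1 run.
Ccnb2 (chr9:70421505-70421804, minus strand): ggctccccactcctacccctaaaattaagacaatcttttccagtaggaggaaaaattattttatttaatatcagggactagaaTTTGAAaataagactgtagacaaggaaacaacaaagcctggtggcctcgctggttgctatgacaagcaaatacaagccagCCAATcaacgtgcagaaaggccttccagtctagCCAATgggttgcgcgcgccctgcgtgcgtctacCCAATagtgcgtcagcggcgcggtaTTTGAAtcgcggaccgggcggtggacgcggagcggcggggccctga
Cdk1 (chr10:69352863-69353162, minus strand): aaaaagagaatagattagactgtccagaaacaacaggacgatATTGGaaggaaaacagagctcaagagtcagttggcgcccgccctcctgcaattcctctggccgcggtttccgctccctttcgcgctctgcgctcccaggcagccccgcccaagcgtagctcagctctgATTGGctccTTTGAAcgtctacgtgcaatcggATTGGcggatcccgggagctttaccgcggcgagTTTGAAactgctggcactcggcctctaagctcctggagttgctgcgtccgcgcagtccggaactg
Mki67 (chr7:135716330-135716629, minus strand): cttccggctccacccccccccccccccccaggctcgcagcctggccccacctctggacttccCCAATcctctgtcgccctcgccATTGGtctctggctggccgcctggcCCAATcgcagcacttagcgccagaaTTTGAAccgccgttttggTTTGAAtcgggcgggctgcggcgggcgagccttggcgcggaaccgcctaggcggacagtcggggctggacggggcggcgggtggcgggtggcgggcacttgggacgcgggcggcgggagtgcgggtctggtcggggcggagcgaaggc
Ube2c (chr2:164769679-164769978, plus strand): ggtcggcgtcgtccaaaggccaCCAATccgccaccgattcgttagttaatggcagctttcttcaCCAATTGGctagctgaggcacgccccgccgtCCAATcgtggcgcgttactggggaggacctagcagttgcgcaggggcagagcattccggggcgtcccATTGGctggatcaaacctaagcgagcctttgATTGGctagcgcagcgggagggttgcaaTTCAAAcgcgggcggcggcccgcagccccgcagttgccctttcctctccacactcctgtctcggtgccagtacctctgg
In Ccnb2, Cdk1 and Ube2c the CHR match nearest the start lies within 30 bases of it, with CCAAT matches upstream. A match is a description of the letters and not of binding. The promoters shown are examples, and Ccnb1, Plk1 and Birc5 had WT replicate ratios in the same range and are not shown. A link between the motifs and the replicate ratio was not tested.

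The E2F site, searched as TTTCCCGC, TTTCGCGC, TTTGCCGC or TTTGGCGC on both strands, was present in 6 of 12 S phase genes, or 50%, in 3 of 8 G1 drivers, in 1 of 6 restraint genes, in 1 of 16 mitotic genes and in 2.60% of all genes with a listed promoter. Mcm6 held the most matches, 3 in all, of which a pair on opposite strands overlaps. Its promoter is shown because Mcm6 was the S phase gene with the largest difference between the genotypes, with E2F matches in capitals.
Mcm6 (chr1:128359656-128359955, minus strand): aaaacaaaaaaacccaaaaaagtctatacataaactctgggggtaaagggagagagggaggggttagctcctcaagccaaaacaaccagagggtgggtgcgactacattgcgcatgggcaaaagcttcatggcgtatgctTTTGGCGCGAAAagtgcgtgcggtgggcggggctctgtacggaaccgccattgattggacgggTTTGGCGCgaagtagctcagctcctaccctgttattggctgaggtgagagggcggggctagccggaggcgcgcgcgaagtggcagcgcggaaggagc
Mcm3, Mcm5 and Mcm7 also held 2 matches each, in 1 of 2 listed promoters for Mcm7, and overlapped between the genotypes.

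For the factor deleted here, the ETS site was searched as CCGGAAG on both strands, a sequence that many members of the ETS family can bind. It was present in 6 of the 42 genes, or 14.3%, against 9.93% of all genes with a listed promoter, and the 6 were Aurka, Cdc20, Cenpf, Mki67, Tyms and Ccnd3. Of these, Cenpf was not tested, and of the other 5 only Ccnd3 had an unadjusted p under 0.05. Mcm6, Ccne1, E2f1, E2f2 and E2f3, which also had such a p, held no match. Ccnd2, the called gene, had no listed promoter to search. A link between the site and the level of Ccnd3 was not tested. Ccnd3 has 2 listed promoters, and the match is in the downstream one, shown with the match in capitals.
Ccnd3 (chr17:47593217-47593516, plus strand): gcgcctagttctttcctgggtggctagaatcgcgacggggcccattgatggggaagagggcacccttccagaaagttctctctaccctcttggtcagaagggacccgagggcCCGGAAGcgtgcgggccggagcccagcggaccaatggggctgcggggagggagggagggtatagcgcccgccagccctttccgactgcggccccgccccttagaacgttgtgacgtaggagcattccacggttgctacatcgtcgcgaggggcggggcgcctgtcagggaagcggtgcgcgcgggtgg
The match starts 138 bases before the annotated start.

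Other genes of the same pathways, beyond the 51, were counted in the same way. Of 40 tested replication genes, 42 mitotic genes, 13 genes of G1 and the E2F family and 16 genes of restraint and of the p130 complex, 0 were called in either direction, and at an unadjusted p under 0.05 the counts were 4, 1, 1 and 0, beside 13.3% of all genes tested. With 0.877% of all genes called higher and 0.822% called lower, 0 calls in lists of this size is near the background. The median log2 fold changes were 0.01, 0.07, 0.03 and -0.01 in that order. The 4 replication genes were all subunits of DNA polymerases. Pole, the catalytic subunit of polymerase epsilon, was at 2.62 and 3.03 FPKM in WT and at 5.49 and 5.73 FPKM in Ets1-/- cells, with an adjusted p of 0.0842. Pole2, its second subunit, was at 3.27 and 3.73 FPKM in WT and at 2.17 and 2.23 FPKM in Ets1-/- cells, with an adjusted p of 0.234. Pold1 and Pold2 of polymerase delta had log2 fold changes of -0.81 and 0.52 and adjusted p of 0.167 and 0.368. These 6 genes are named because of their unadjusted p, after their values were seen, the other 2 being Cdc25b at -0.48 and E2f6 at 0.64 on the log2 scale. The most abundant genes of the lists by the mean over the 4 libraries were Rfc2 and Rpa1 among replication genes, Stmn1 and Pttg1 among mitotic genes, Ccng2 and Ccng1 among G1 genes and Btg1 and Btg2 among restraint genes. Btg1, an antiproliferative gene of resting lymphocytes, was at 233 and 359 FPKM in WT and at 355 and 289 FPKM in Ets1-/- cells. Of the 42 other mitotic genes 41 were higher in WT replicate 2 than in WT replicate 1, with a median ratio of 1.56, as among the 18 members.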

How the data were processed

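RNA from sorted B cells of 2 WT and 2 Ets1-/- samples was sequenced from TruSeq libraries. The authors aligned reads to mm9 with TopHat2 2.0.13 and derived the deposited FPKM with Cuffdiff, per the submitters' processing notes, and its version, scaling, annotation and strand setting are not given in the sources used here. FPKM without read counts gives no direct depth, so relative depth was estimated from values under 0.05 FPKM. The 23309 entries of each table held 4 with a repeated symbol, which were left out, and 17315 of 23305 genes were above 0. limma 3.58.1 (R 4.3.3; lmFit, eBayes with trend, two-sided) was run on log2(FPKM + 1), which understates changes of low genes, with Benjamini-Hochberg adjustment over 10949 genes; 186 were called. P-values measure only the spread between these libraries. The script was tested on simulated data. Positions and overlaps are from GENCODE M1 on mm9, and promoters from RefSeq on GRCm38.p6, whose coordinates were not mixed. Alternatives were pseudocounts of 0.1 and 0.5, other level filters, quantile and upper-quartile scaling, robust variance, replicate block and leaving out each library. A crossed replicate block was added after the data had been seen. Members described with all libraries were the called genes, the 4 highest per role, the 6 largest fold changes, the 6 largest replicate ratios and a list of known regulators. Members, lists and motifs were chosen with earlier results of these data known.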

Additional observations from a re-analysis of the deposited data

How the results depend on the processing

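Over 622 values of the members under 13 alternatives, 560 kept their direction and their side of the threshold, 6 lost the call and 56 changed sign, in 29 members. All 6 lost calls were of Ccnd2, so the members called higher fell from 1 to 0 with no filter on level, with the replicate block and without any 1 library, which leaves 1 genotype with a single library assumed to vary like the other. With the replicate number as a block all genes called came to 266, with 154 higher and 112 lower, against 186 without it. Same-numbered libraries did not deviate together (correlation of deviations -0.21). With 2 libraries per genotype this correlation cannot show whether libraries were handled in pairs, and the labels give only replicate numbers. With the numbers crossed, a choice made after seeing the data, 409 genes were called, 244 higher and 165 lower. With no filter 75 were called, 37 higher and 38 lower, and with robust variance estimation 305, with 165 higher and 140 lower. Leaving out 1 library gave 130 to 144 calls, with 61 to 88 higher, lowest without WT replicate 1, and 42 to 71 lower, lowest without Ets1-/- replicate 2. The cause of these shifts was not tested, and quantile and upper-quartile scaling moved the median log2 fold change of all genes by 0.0077 and 0.0386.

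Every sign change concerned a log2 fold change that was not called. Rrm2 turned to 0.0027 with a pseudocount of 0.1, 0.0506 with quantile normalization and 0.0336 with upper-quartile scaling. Ccnb1 turned to 0.0053, 0.0196 and 0.0254 under the same settings, Cdc20 to 0.0101 with quantile normalization and 0.0008 with upper-quartile scaling, and Cdkn1b to 0.0322 with upper-quartile scaling. Leaving out 1 library gave ranges on the log2 scale for the members that changed sign of Mcm5 -0.10 to 0.27, Mcm7 -0.0865 to 0.29, Cdt1 -0.0452 to 0.14, Rrm2 -0.36 to 0.35, Tyms -0.25 to 0.0985, Tk1 -0.0221 to 0.18, Mki67 -0.35 to 0.41, Top2a -0.19 to 0.50, Ccna2 -0.62 to 0.22, Ccnb1 -0.35 to 0.34, Ccnb2 -0.37 to 0.40, Cdk1 -0.20 to 0.51, Aurka -0.0191 to 0.16, Aurkb -0.20 to 0.29, Plk1 -0.0724 to 0.63, Bub1b -0.27 to 0.16, Birc5 -0.37 to 0.40, Kif11 -0.39 to 0.11, Kif20a -0.20 to 0.25, Ube2c -0.35 to 0.37, Cdc20 -0.29 to 0.22, Foxm1 -0.23 to 0.0277, Cdk6 -0.0363 to 0.0639, Cdkn1b -0.20 to 0.18, Cdkn2d -0.47 to 0.18, Rb1 -0.62 to 0.31, Rbl1 -0.0209 to 0.20, Rbl2 -0.0538 to 0.19 and E2f4 -0.12 to 0.24. FPKM carries no counts, so no counting interval was given for the low mitotic members, and the depth of the libraries differed by up to 2.01-fold.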
